A study of Saccharomyces cerevisiae with 10 samples.

Results

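Deletions of HTL1 and NPL6, which encode subunits of the same submodule of the chromatin remodeller RSC in budding yeast, were set directly against each other. The comparison took the htl1Δ and npl6Δ libraries, 2 of the 10 in the series. Their transcript levels were brought to the scale of the WT library that both were deposited with, and the log2 ratio of htl1Δ over npl6Δ was taken for each gene. Of 6816 rows that name a single gene, 6190 had the authors' status OK in both tables, and 6030 of these reached 5 FPKM (fragments per length of transcript and per mapped library) in at least 1 of both libraries. The other 160 stayed under that level in both. ENA1 was just inside, with 3.95 FPKM in htl1Δ and 5.003 FPKM in npl6Δ. MEK1 was just outside, with 4.90 FPKM in htl1Δ and 4.99 FPKM in npl6Δ.

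RSC is an essential complex that slides and evicts nucleosomes, and much of its action is at gene promoters. Htl1, Npl6 and Ldb7 form a submodule with Rsc3 and Rsc30, which are zinc-cluster proteins that bind DNA with a CGCG core. Strains without Htl1 or Npl6 are viable, whereas the catalytic subunit Sth1 is essential.

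The htl1Δ library came from a haploid segregant without HTL1, of mating type a by its transcripts, and the npl6Δ library from a segregant without NPL6, of mating type α by its transcripts. Both came from tetrads of rsc heterozygotes in the S288C background and were grown in YPD, a rich glucose medium, in logarithmic phase, with 10 generations in their titles. The 4 other libraries of that experiment were grown alike: rsc1Δ, rsc2Δ and rtt102Δ, each without another RSC subunit and of type a, and WT, of type α. A second experiment held 4 libraries of htl1Δ and WT strains with HTL1 under a galactose promoter (GALpr-HTL1). Polyadenylated RNA was sequenced throughout. Every strain had 1 library, so no value below has a replicate check or a test: a 2-fold rule of size was used, and the values describe these libraries. The deletion, the mating type and any other allele that segregated in the crosses cannot be told apart.

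Depth, estimated from the steps between low values, was about 9690000 fragments for htl1Δ and 10510000 for npl6Δ, within the 9440000 to 11790000 of the 6 libraries. For a locus of 1000 bp, 5 FPKM then stood for about 38 fragments in htl1Δ and 42 in npl6Δ.

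The deleted genes followed the labels. HTL1 was listed at 2.09 FPKM in htl1Δ, against 374 FPKM in npl6Δ and between 293 and 425 FPKM in the other libraries. NPL6 was listed at 83.2 FPKM in htl1Δ, against 0.348 FPKM in npl6Δ and between 85.1 and 101 FPKM in the others. HTL1 in npl6Δ was within the range of the remaining strains, and NPL6 in htl1Δ just below it. LDB7, which encodes another member of the submodule, had 177 FPKM in htl1Δ and 182 FPKM in npl6Δ. RSC3 had 38.9 FPKM in htl1Δ and 30.2 FPKM in npl6Δ, and RSC30 19.6 FPKM in htl1Δ and 17.4 FPKM in npl6Δ. No other subunit gene of RSC passed the 2-fold rule. The largest ratio among the 12 remaining subunits was that of STH1, the catalytic ATPase, with 37.1 FPKM in htl1Δ and 55.8 FPKM in npl6Δ, a log2 ratio of -0.58.

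Few genes separated the libraries. Of the 6030 genes, 234 differed by at least 2-fold, which is 3.88%: 116 (1.92%) were higher in htl1Δ and 118 (1.96%) were lower in htl1Δ. The log2 ratio was within 0.5 of zero for 83.3% of genes, and its median was 0.00. By mean level, the median was 0.06 in the lowest 1508 genes and -0.07 in the highest 1508. The gene lists below were not matched for level. Ratios above 0 made up 49.7% of genes and ratios below 0 50.3%. YGL176C was the gene just inside the rule for higher, with a log2 ratio of 1.01, and DSE2 the gene just inside it for lower, with -1.001. YKR075W-A at 0.9989 and POR1 at -0.9982 were just outside.

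Loci under 300 bp, whose FPKM is unreliable, passed the rule in 59 of 301 cases (19.6%), and longer loci in 175 cases (3.05%), of which 78 were higher and 97 lower in htl1Δ. Of the 234 genes, 11 were listed at 0 in 1 of both libraries. A difference of at least 4-fold was found for 51 genes, and 22 of these were loci of 300 bp or more outside the lists of mating-type, pheromone, marker and deleted genes. Loci on no such list can still follow mating type: YKL177W has the coordinates of STE3, and AFB1 and YLR041W, which share 1 locus, were high in npl6Δ and WT and low in the other libraries. Of those 22, 15 overlapped another listed gene over at least 0.5 of their length, against 15.2% of all genes measured. Because the strand of the reads is not given, values of overlapping genes cannot be told apart, and the named genes below are those without such overlap unless stated.

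**Figure D1:**
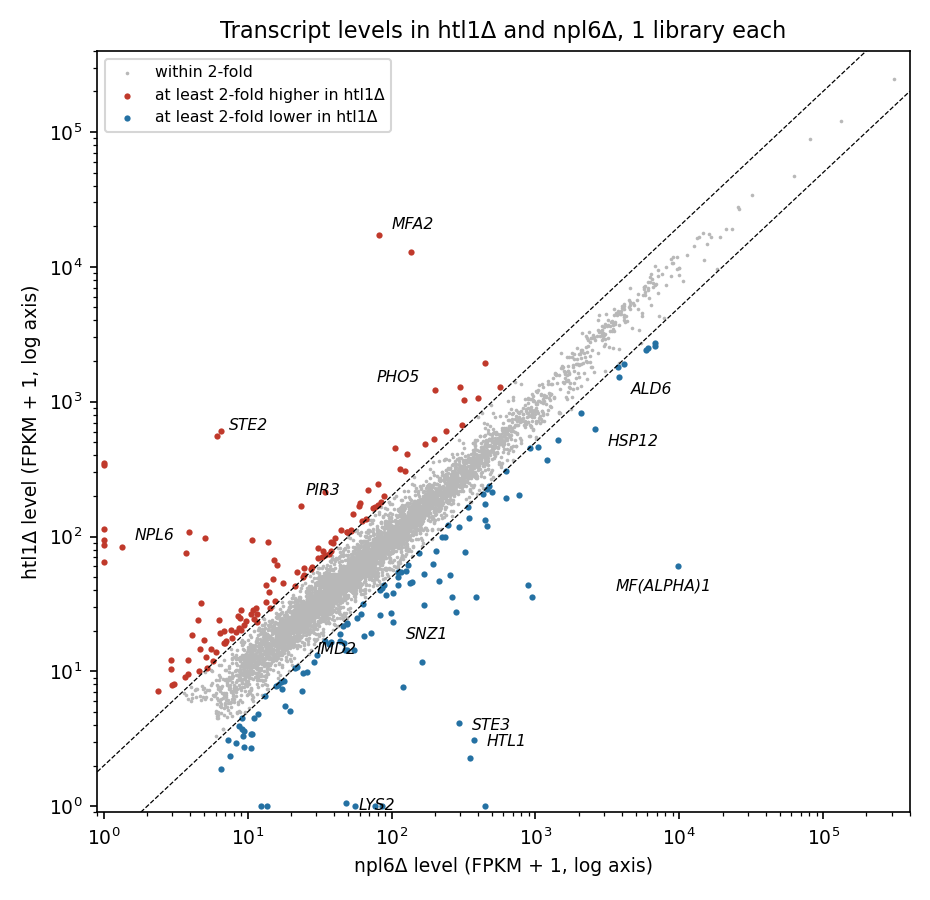
Level of each of the 6030 genes in htl1Δ (vertical axis) and in npl6Δ (horizontal axis), as FPKM + 1 on log axes, 1 library per strain. Dashed lines mark 2-fold. The 116 red points are higher in htl1Δ and the 118 blue points lower; the points farthest from the diagonal include the deleted genes and the mating-type genes.

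Among all 15 pairs that can be made of the 6 libraries, the shares of genes past the 2-fold rule ran from 2.45% to 7.89%. The 3.88% of htl1Δ against npl6Δ was the second lowest, after rtt102Δ against WT at 2.45%. It was close to the 3.99% of htl1Δ against rsc1Δ, and npl6Δ against rsc1Δ had 4.83%. With rsc2Δ the share was 6.26% for htl1Δ and 5.55% for npl6Δ, and with rtt102Δ 5.53% for htl1Δ and 6.56% for npl6Δ. Set against WT, htl1Δ had 6.75% and npl6Δ 7.89% of genes past the rule. These pairs share libraries and are given side by side only. Loci under 300 bp, the mating-type, pheromone, marker and deleted genes, and the RSC subunit genes except LDB7, RSC3 and RSC30 were then left out. The share for htl1Δ against npl6Δ became 2.88%, again second lowest in a range of 1.51% to 6.79%. In the other experiment, the htl1Δ and WT strains that both carried GALpr-HTL1 were compared in YPGR, taken here as the galactose medium. They differed at 1.68% of genes, or 0.947% without the genes named above. That pair was picked because the authors called no gene in it. It therefore does not measure how far single libraries can lie apart.

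**Figure D2:**
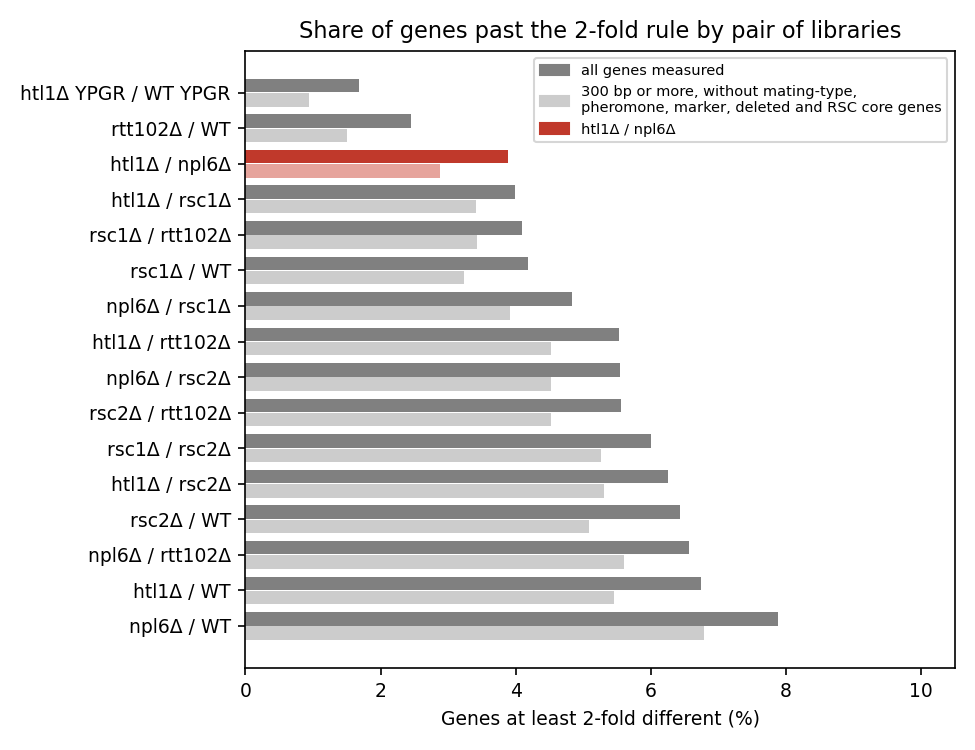
Percentage of measured genes at least 2-fold different between the libraries of each pair. Dark bars count all genes. Light bars leave out loci under 300 bp, the mating-type, pheromone, marker and deleted genes, and the RSC subunit genes except LDB7, RSC3 and RSC30. The htl1Δ and npl6Δ pair (red, 3.88%) is the second lowest of the 15 pairs of experiment 1; the YPGR pair of experiment 2 stands at the top of the plot with 1.68%.

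Mating-type genes were among the largest ratios, although loci listed at 0 in 1 library, such as YHR073C-B and snR78, had larger ones. STE2, the α-factor receptor made by a cells, had 558 FPKM in htl1Δ, against 5.10 FPKM in npl6Δ and 6.60 FPKM in WT. MFA2, an a-factor precursor, had 17187 FPKM in htl1Δ, against 81.4 FPKM in npl6Δ, although its locus is under 300 bp. All 7 a-specific genes were at least 2-fold higher in htl1Δ, from ASG7 at a log2 ratio of 1.48 to MFA2 at 7.70. In these genes rsc1Δ, rsc2Δ and rtt102Δ stood with htl1Δ, and WT with npl6Δ.

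All 4 α-specific genes were lower in htl1Δ. STE3, the a-factor receptor, had 3.11 FPKM in htl1Δ, against 294 FPKM in npl6Δ, and it shares its locus with YKL177W. The main α-factor gene MF(ALPHA)1 had 59.6 FPKM in htl1Δ, against 9859 FPKM in npl6Δ and 5220 FPKM in WT. MF(ALPHA)2 had 34.5 FPKM in htl1Δ, against 953 FPKM in npl6Δ and 4165 FPKM in WT, and SAG1, the α-agglutinin, 26.4 FPKM in htl1Δ, against 278 FPKM in npl6Δ and 1167 FPKM in WT. Both genes were lower in npl6Δ than in WT, although both strains are of type α. The authors called neither gene in npl6Δ against WT. HMRA1, a silent copy whose reads cannot be told from those of MATa1, was listed at 245 FPKM in htl1Δ and at 0 in npl6Δ and WT.

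Of the 16 measured pheromone-response genes, 6 had a ratio above 0 and 10 below, with a median of -0.04. SST2, which desensitises cells to pheromone, passed the rule with 40.7 FPKM in htl1Δ and 84.9 FPKM in npl6Δ. The marker genes showed a further difference between the strains. LYS2, a lysine synthesis gene often used as a marker, had 0.0521 FPKM in htl1Δ, against 47.5 FPKM in npl6Δ, and was also near 0 in rsc1Δ and rsc2Δ. LEU2 and URA3 were listed at 0 in both libraries and in WT. MET17, which overlaps YLR302C, set both deletions apart from WT. Neither had any MET17 signal, and rtt102Δ had none either, while WT had 155 FPKM, rsc2Δ 146 FPKM and rsc1Δ 54.9 FPKM. The part of this in other differences of htl1Δ and npl6Δ from WT was not tested.

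Promoter sequence is printed for 4 genes that carry the results on stress, phosphate, vitamin B6 and histone genes below, each from 450 to 151 bases before the start of the coding sequence. The sequences are those of the RefSeq R64 assembly, which is the same as sacCer3, and are read 5′ to 3′ on the strand of the gene. Capitals mark 1 motif per gene, searched on both strands: AGGGG or CCCCT, bound by Msn2 and Msn4, in HSP12 (chrVI:106806-107105, plus strand); CACGTG, a core bound by basic helix-loop-helix factors such as Cbf1 and Pho4, in PHO5 (chrII:431102-431401, minus strand); TGACTC or GAGTCA, bound by Gcn4, in SNZ1 (chrXIII:457958-458257, plus strand); and CGCG, the core bound by Rsc3 and Rsc30, in HHF2 (chrXIV:576277-576576, plus strand), whose region is shared with the divergent HHT2.
HSP12: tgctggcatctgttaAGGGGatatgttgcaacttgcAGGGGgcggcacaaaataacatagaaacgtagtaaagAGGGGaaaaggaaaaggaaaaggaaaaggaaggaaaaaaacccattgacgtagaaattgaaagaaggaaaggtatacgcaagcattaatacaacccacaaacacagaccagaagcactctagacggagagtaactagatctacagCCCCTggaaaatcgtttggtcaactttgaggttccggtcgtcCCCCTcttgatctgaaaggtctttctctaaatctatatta
PHO5: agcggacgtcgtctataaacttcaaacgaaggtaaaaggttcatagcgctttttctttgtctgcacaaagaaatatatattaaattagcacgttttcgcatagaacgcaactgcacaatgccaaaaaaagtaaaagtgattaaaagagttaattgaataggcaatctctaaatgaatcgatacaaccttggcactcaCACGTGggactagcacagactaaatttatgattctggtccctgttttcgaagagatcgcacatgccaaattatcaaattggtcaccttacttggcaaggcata
SNZ1: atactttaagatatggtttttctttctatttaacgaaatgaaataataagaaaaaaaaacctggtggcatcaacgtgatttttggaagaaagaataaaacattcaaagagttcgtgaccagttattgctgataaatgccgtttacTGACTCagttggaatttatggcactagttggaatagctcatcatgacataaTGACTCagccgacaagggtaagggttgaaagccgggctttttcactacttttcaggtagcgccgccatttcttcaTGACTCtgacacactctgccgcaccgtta
HHF2: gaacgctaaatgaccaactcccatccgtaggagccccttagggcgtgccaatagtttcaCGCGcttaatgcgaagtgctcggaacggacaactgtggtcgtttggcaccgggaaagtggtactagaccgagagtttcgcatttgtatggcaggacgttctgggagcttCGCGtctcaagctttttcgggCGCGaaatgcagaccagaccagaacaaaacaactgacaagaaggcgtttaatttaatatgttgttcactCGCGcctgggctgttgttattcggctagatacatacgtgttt

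The HSP12 stretch held 5 matches; of the same windows of 6000 genes, 23.4% held at least 1 and 0.1% at least 5. For the single CACGTG of PHO5 the share with at least 1 was 4.67%. The SNZ1 stretch held 3 matches, with at least 1 in 8.35% of windows and at least 3 in 0.1%. The HHF2 stretch held 4 matches, with at least 1 in 29.2% and at least 4 in 0.517%. With 1 motif picked per gene, these shares are a description and no test. A match describes these letters and shows no binding.

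HSP12 was among the 15 lowest ratios, and few other stress genes passed the rule. HSP12, a small membrane-associated stress protein, had 622 FPKM in htl1Δ, against 2602 in npl6Δ, 567 in rsc1Δ, 1382 in rsc2Δ, 64.7 in rtt102Δ and 44.9 in WT. Both htl1Δ and npl6Δ were far above WT, with npl6Δ the highest of the 6, and their log2 ratio was -2.06. In the authors' deposited tables HSP12 had a q-value of 0.0132 for htl1Δ against WT and 0.0150 for npl6Δ against WT. HSP26, a small heat-shock chaperone, had 51.5 FPKM in htl1Δ, against 168 in npl6Δ, 108 in rsc1Δ, 167 in rsc2Δ, 34.5 in rtt102Δ and 48.1 in WT. Here htl1Δ was at the level of WT and npl6Δ with rsc2Δ above it. CTT1, the cytosolic catalase, had 15.8 FPKM in htl1Δ and 43.0 FPKM in npl6Δ.

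Of the 26 measured general stress genes, 6 had a ratio above 0 and 20 below, with a median of -0.30; 2 passed the rule as lower and GPX1, a glutathione peroxidase, as higher, with a log2 ratio of 1.06. Other heat-shock genes had ratios on the opposite side from HSP26: 18 of the 24 measured chaperone genes had a ratio above 0, with a median of 0.20. HSP104, the disaggregase, had 218 FPKM in htl1Δ, against 121 in npl6Δ, 324 in rsc1Δ, 242 in rsc2Δ, 299 in rtt102Δ and 411 in WT. It was lowest in npl6Δ and below WT in both, and its log2 ratio of 0.84 missed the rule. The npl6Δ library was the lowest of the 6 in 15 of the 24 chaperone genes, against 19.0% of all genes.

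Several named genes of metabolism were highest in npl6Δ, and they were named for their low ratio of htl1Δ over npl6Δ. SNZ1, which acts in vitamin B6 synthesis, had 22.1 FPKM in htl1Δ, against 102 in npl6Δ, 19.8 in rsc1Δ, 31.1 in rsc2Δ, 17.5 in rtt102Δ and 17.7 in WT. Only npl6Δ stood apart, with a log2 ratio of -2.16 between htl1Δ and npl6Δ. URA2, which catalyses the first steps of pyrimidine synthesis, had 173 FPKM in htl1Δ, against 444 in npl6Δ, 116 in rsc1Δ, 86.7 in rsc2Δ, 88.7 in rtt102Δ and 88.0 in WT. It was highest in npl6Δ and next highest in htl1Δ. URA8, a CTP synthase, had 98.9 FPKM in htl1Δ and 233 FPKM in npl6Δ. They were the 2 pyrimidine genes past the rule: of 11 measured, 4 had a ratio above 0 and 7 below, with a median of -0.07.

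Of 13 measured fermentation genes, 3 had a ratio above 0 and 10 below, with a median of -0.32, and the 2 past the rule encode acetaldehyde dehydrogenases. ALD6, the main cytosolic enzyme, had 1511 FPKM in htl1Δ, against 3794 in npl6Δ, 706 in rsc1Δ, 1724 in rsc2Δ, 589 in rtt102Δ and 672 in WT. ALD4, the mitochondrial enzyme, had 131 FPKM in htl1Δ, against 443 in npl6Δ, 182 in rsc1Δ, 170 in rsc2Δ, 89.7 in rtt102Δ and 145 in WT. In ALD4 npl6Δ alone was high, and in ALD6 htl1Δ and rsc2Δ lay between npl6Δ and WT. GCV2, a subunit of the glycine cleavage system, had 21.6 FPKM in htl1Δ, against 48.1 FPKM in npl6Δ and 6.07 FPKM in WT. Outside metabolism, PHD1, a transcription factor of pseudohyphal growth, had 201 FPKM in htl1Δ, against 769 in npl6Δ, 196 in rsc1Δ, 154 in rsc2Δ, 171 in rtt102Δ and 169 in WT. Its neighbour MMO1 had 118 FPKM in htl1Δ and 458 FPKM in npl6Δ.

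In the authors' deposited table of npl6Δ against WT, SNZ1, URA2, ALD6 and GCV2 each had a q-value of 0.0150, and PHD1 one of 0.0467. In their table of htl1Δ against WT the q-values were 0.999 for SNZ1, URA2 and PHD1, 0.735 for ALD6 and 0.128 for GCV2. ALD4, URA8, MMO1, HSP26 and YPK2 were called in neither comparison. A call in one table and not in the other does not show that htl1Δ and npl6Δ differ.

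Genes of several amino acid pathways were lower in htl1Δ than in npl6Δ, most of them by less than 2-fold. All 10 measured branched-chain genes had a ratio below 0, with a median of -0.44, and npl6Δ was the highest of the 6 libraries in 8 of the 10, against 21.1% of all genes. LEU4, which starts leucine synthesis, passed with 204 FPKM in htl1Δ and 430 FPKM in npl6Δ, and overlaps YNL103W-A. All 9 lysine genes had a ratio below 0, with a median of -0.50. LYS2 itself is among them, and the part of its absence from htl1Δ in the other 8 was not tested. Of 9 one-carbon genes 7 had a ratio below 0, with a median of -0.51.

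Of 11 measured arginine genes, 2 had a ratio above 0 and 9 below, with a median of -0.32. Against the shared WT library the list had a median of 1.62 in htl1Δ and 1.81 in npl6Δ. ARG1, the argininosuccinate synthetase, had 315 FPKM in htl1Δ, against 250 in npl6Δ, 90.8 in rsc1Δ, 57.1 in rsc2Δ, 252 in rtt102Δ and 29.1 in WT. In rtt102Δ the permease genes CAN1 and LYP1, which are on the marker list, had 0.135 and 0.0648 FPKM, against 74.3 and 164 FPKM in WT. The part of this in the ARG1 level of rtt102Δ was not tested. ARG4, the argininosuccinate lyase, had 282 FPKM in htl1Δ, against 328 FPKM in npl6Δ and 63.6 FPKM in WT. Both deletions were at least 4-fold above WT in these genes, which were named for that and for their small ratio.

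Of 25 genes of iron homeostasis, 3 passed the rule, all as lower in htl1Δ. FET3, the multicopper ferroxidase of high-affinity uptake, had 116 FPKM in htl1Δ, against 293 in npl6Δ, 338 in rsc1Δ, 268 in rsc2Δ, 339 in rtt102Δ and 360 in WT. FTR1, its partner permease, had 137 FPKM in htl1Δ, against 343 in npl6Δ, 335 in rsc1Δ, 293 in rsc2Δ, 287 in rtt102Δ and 320 in WT. For both genes htl1Δ alone was low, with log2 ratios of -1.33 and -1.32, but the authors called neither in htl1Δ against WT. FIT1, a cell-wall mannoprotein that retains siderophore iron, was the other, with 3.52 FPKM in htl1Δ and 10.1 FPKM in npl6Δ, but WT at 3.14 FPKM was with htl1Δ. Over the list 19 genes had a ratio below 0 and 6 above, with a median of -0.38, and htl1Δ was the lowest of the 6 libraries in 13 of the 25, against 17.0% of all genes.

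Phosphate genes had a few high values in htl1Δ. PHO5, the main secreted acid phosphatase, had 1214 FPKM in htl1Δ, against 200 in npl6Δ, 165 in rsc1Δ, 143 in rsc2Δ, 178 in rtt102Δ and 368 in WT. It was high in htl1Δ alone, with a log2 ratio of 2.60, but the authors did not call it in htl1Δ against WT. PHO11, another secreted acid phosphatase, had 60.6 FPKM in htl1Δ and 14.9 FPKM in npl6Δ, but it is nearly identical to PHO12, which had 67.3 FPKM in htl1Δ and 41.1 FPKM in npl6Δ, so reads could be split between them. Not all phosphate genes had such a ratio. PHO84, the high-affinity phosphate transporter, had 1964 FPKM in htl1Δ, against 2280 FPKM in npl6Δ and 852 FPKM in WT. Of 17 phosphate genes 11 had a ratio above 0, with a median of 0.17.

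Further genes without an overlap passed the rule as higher in htl1Δ than in npl6Δ. PIR3, a cell-wall protein, had 175 FPKM in htl1Δ, against 59.5 in npl6Δ, 26.6 in rsc1Δ, 63.9 in rsc2Δ, 13.7 in rtt102Δ and 22.1 in WT. YPK2, a protein kinase downstream of TORC2, had 47.3 FPKM in htl1Δ, against 13.9 in npl6Δ, 38.8 in rsc1Δ, 45.3 in rsc2Δ, 32.9 in rtt102Δ and 50.7 in WT. The values of PIR3 set htl1Δ apart as the highest library, while those of YPK2 set npl6Δ apart as the lowest. PYK2, the minor pyruvate kinase, had 21.2 FPKM in htl1Δ, against 8.39 FPKM in npl6Δ and 52.9 FPKM in WT, and was thus below WT in both. PER33, a nuclear envelope protein related to Pom33, had 109 FPKM in htl1Δ and 51.1 FPKM in npl6Δ.

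IMD2, an IMP dehydrogenase of GTP synthesis, had 18.2 FPKM in htl1Δ, against 71.0 in npl6Δ, 21.2 in rsc1Δ, 35.0 in rsc2Δ, 113 in rtt102Δ and 110 in WT. It was lowest in htl1Δ, with a log2 ratio of -1.91, and rsc1Δ had nearly as little. IMD3, IMD4 and GUA1, the other genes of the branch, had log2 ratios of -0.19, -0.12 and 0.23.

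**Figure D3:**
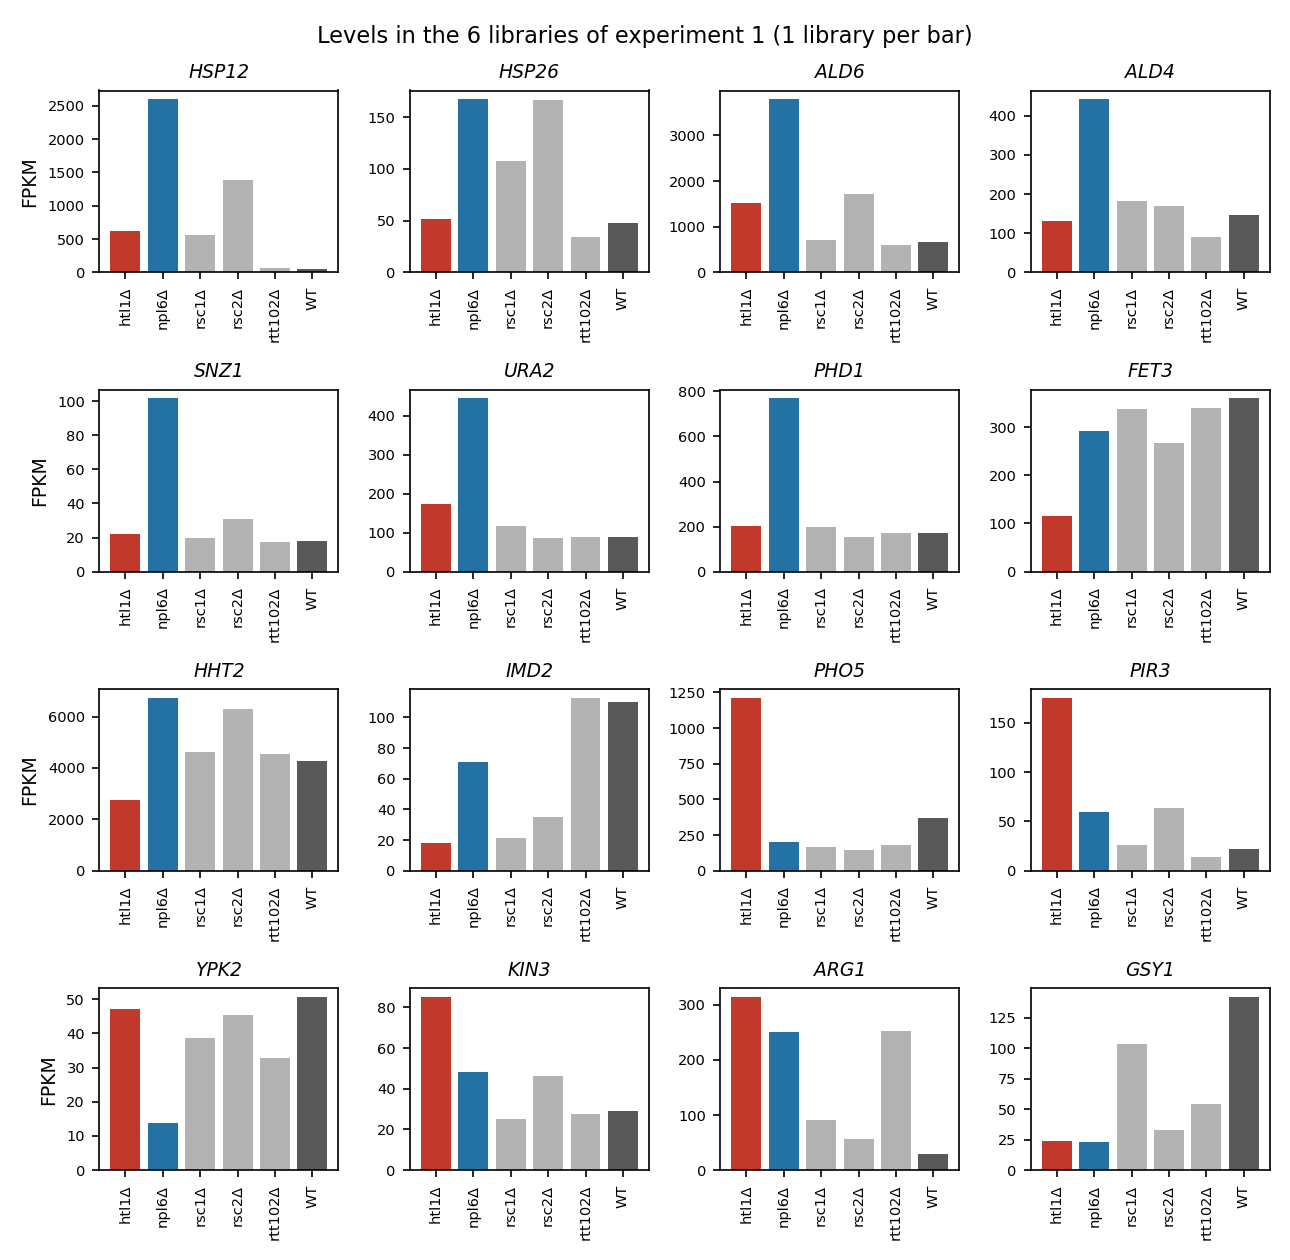
Level in FPKM (linear axes from 0) of 16 genes in the 6 libraries of experiment 1, 1 library per bar: htl1Δ red, npl6Δ blue, the other deletions light grey and WT dark grey. HSP12, SNZ1, URA2 and PHD1 are highest in npl6Δ. PHO5 and PIR3 are highest in htl1Δ, and FET3 and IMD2 are lowest in htl1Δ. GSY1 is at nearly the same level in htl1Δ and npl6Δ, and ARG1 is higher in htl1Δ by less than 2-fold.

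Histone genes were lower in htl1Δ in all 11 cases, with a median log2 ratio of -0.98, against 0.00 over all genes. HHT2, a gene of histone H3, had 2741 FPKM in htl1Δ, against 6736 in npl6Δ, 4621 in rsc1Δ, 6305 in rsc2Δ, 4543 in rtt102Δ and 4291 in WT. HTB1, a gene of histone H2B, had 2483 FPKM in htl1Δ, against 6068 in npl6Δ, 5652 in rsc1Δ, 4352 in rsc2Δ, 4609 in rtt102Δ and 4362 in WT. In both, htl1Δ was below and npl6Δ above WT. The 5 genes past the rule were HHT2 at -1.30, HHF2 and HTB1 at -1.29, HTA1 at -1.10 and HTA2 at -1.05. CSE4, the centromeric H3 variant, was nearest to zero, with 94.9 FPKM in htl1Δ and 95.1 FPKM in npl6Δ. The htl1Δ library was the lowest of the 6 in 10 of the 11 genes, against 17.0% of all genes, and npl6Δ the highest in 5, against 21.1% of all genes. Histone gene pairs are close in sequence, so single copies are less certain than the list. In the window from 250 bases before to 50 after the start, CGCG was present in 7 of the 11 histone promoters (63.6%) and in 26.1% of all 6001. In the other lists searched its share ran from 11.1% for G2 and mitosis genes to 31.2% for respiratory chain genes. Iron, daughter-cell and phosphate genes lay between these, below the share of all promoters. Other motifs had high shares elsewhere: CACGTG was in 23.5% of phosphate promoters, against 2.92% of all. A link between any motif and the ratios was not tested.

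Genes of other cell-cycle phases stood on different sides. Of 18 genes that peak in G2 and mitosis, 17 had a ratio above 0, with a median of 0.63, and none passed the 2-fold rule. KIN3, a kinase of mitosis, had 85.1 FPKM in htl1Δ, against 48.0 in npl6Δ, 25.2 in rsc1Δ, 46.2 in rsc2Δ, 27.8 in rtt102Δ and 29.0 in WT. SWI5, a transcription factor that enters the nucleus at mitotic exit, had 67.1 FPKM in htl1Δ, against 37.7 in npl6Δ, 41.5 in rsc1Δ, 41.8 in rsc2Δ, 37.8 in rtt102Δ and 38.2 in WT. The htl1Δ library was the highest of the 6 in both, as in 16 of the 18 genes, against 17.6% of all genes. CLB1, a mitotic cyclin, was the gene with a ratio below 0, with 161 FPKM in htl1Δ, against 181 FPKM in npl6Δ and 71.4 FPKM in WT.

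Genes expressed after mitosis and in daughter cells were lower in htl1Δ in 14 of 15 cases, with a median of -0.77, and 4 passed the rule. With each chromosome centred on its own median EGT2 and DSE4 missed it, at -0.97 and -0.92, and DSE2 missed it with levels as deposited, at -0.99. EGT2, an enzyme of cell separation, had 98.0 FPKM in htl1Δ, against 224 in npl6Δ, 163 in rsc1Δ, 173 in rsc2Δ, 165 in rtt102Δ and 166 in WT. DSE4, a daughter-cell glucanase, had 49.5 FPKM in htl1Δ, against 109 in npl6Δ, 41.9 in rsc1Δ, 76.5 in rsc2Δ, 45.6 in rtt102Δ and 39.5 in WT. For EGT2 htl1Δ was the lowest library, and for DSE4 npl6Δ the highest. AMN1, an antagonist of mitotic exit, had a log2 ratio of -1.03 and DSE2, another daughter-specific gene, one of -1.001.

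The 24 genes of the G1 to S transition were split, with 10 above 0, 14 below and a median of -0.04. PCL1, a cyclin of Pho85, had 35.7 FPKM in htl1Δ and 90.5 FPKM in npl6Δ and passed the rule. The G1 cyclin genes CLN1 and CLN2 had log2 ratios of -0.90 and -0.85. Genes of replication such as POL1, of DNA polymerase α, at 0.13 and CDC9, DNA ligase, at 0.06 did not differ by the rule.

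**Figure D4:**
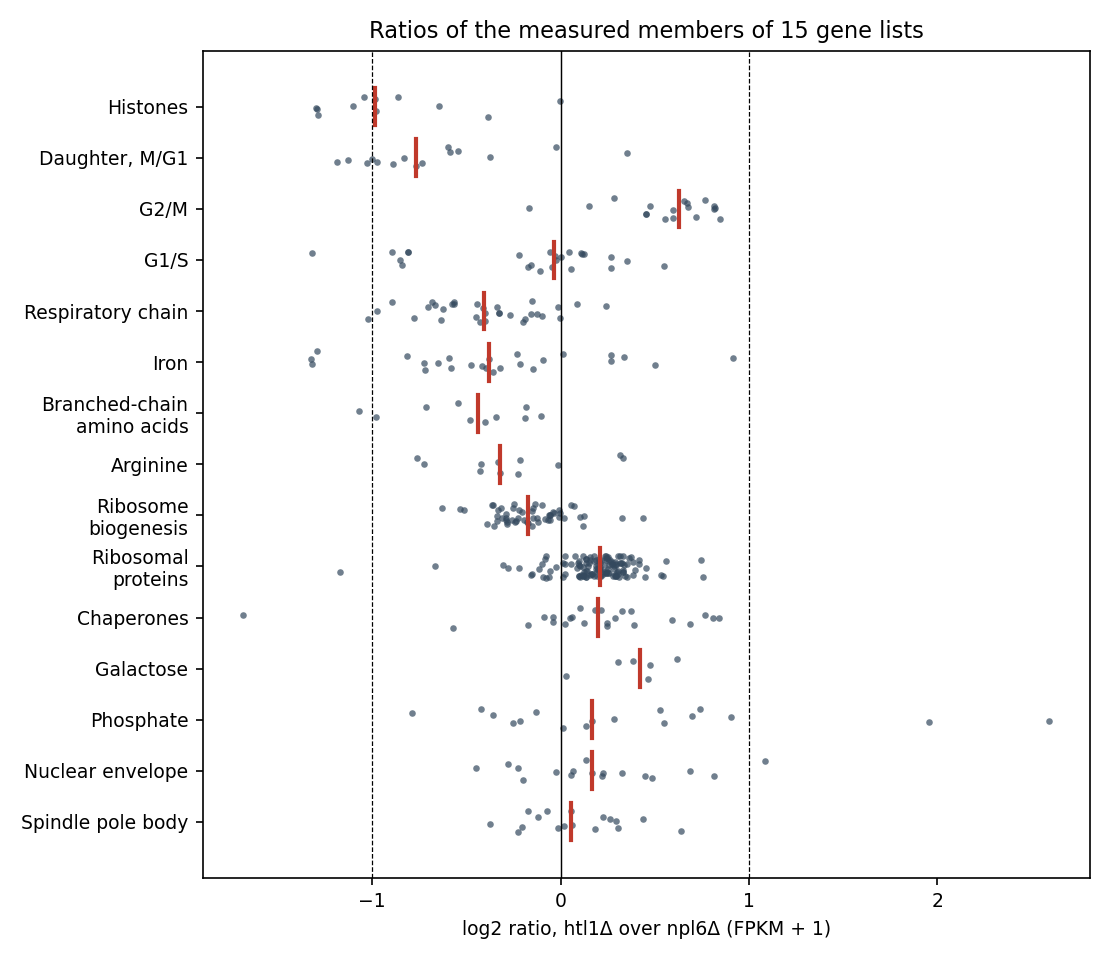
Log2 ratio of htl1Δ over npl6Δ for each measured member (points) of 15 gene lists; red bars are list medians and dashed lines mark 2-fold. Histone and daughter-cell genes lie to the left with medians of -0.98 and -0.77, G2 and mitosis genes to the right with 0.63, and spindle pole body genes around 0.05.

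Respiratory chain genes were lower in htl1Δ in 30 of 32 cases, with a median of -0.41. COX5A, a subunit of cytochrome c oxidase, passed the rule with 166 FPKM in htl1Δ, against 337 FPKM in npl6Δ and 256 FPKM in WT. Its paralogue COX5B had 179 FPKM in htl1Δ, against 353 FPKM in npl6Δ and 198 FPKM in WT. Both genes were below WT in htl1Δ, unlike the list as a whole. Against WT the respiratory chain list had medians of 0.16 in htl1Δ, 0.48 in npl6Δ and 0.68 in rsc2Δ. Genes of cytosolic ribosomal proteins had a ratio above 0 in 120 of 136 cases, with a median of 0.21, and ribosome biogenesis genes one below 0 in 47 of 55 cases, with a median of -0.17. Relative to WT the ribosomal protein genes had medians of -0.38 in htl1Δ and -0.59 in npl6Δ, and the biogenesis genes 0.37 in htl1Δ and 0.57 in npl6Δ, so in both lists npl6Δ lay farther from the WT library, which the values share. RPS9A was the member past the rule, with a log2 ratio of -1.17, and is uncertain because of its paralogue RPS9B.

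Lists for nuclear structures gave small values. The 17 nuclear envelope genes had a median of 0.17, the 17 spindle pole body genes one of 0.05, the 29 nuclear pore genes one of -0.06 and the 25 kinetochore genes one of 0.06. Across all 53 lists, 52 had at least 4 measured members and 32 of these had a median within 0.25 of zero.

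The place of WT differed among the genes past the rule. Of the 116 higher in htl1Δ, WT was within 2-fold of htl1Δ alone in 34, of npl6Δ alone in 27, of both in 36 and of neither in 19. Of the 118 lower in htl1Δ, it was within 2-fold of htl1Δ alone in 34, of npl6Δ alone in 43, of both in 26 and of neither in 15. These counts include mating-type genes, in which WT and npl6Δ share their type. Loci under 300 bp and the mating-type, pheromone, marker and deleted genes were then left out. The counts in the same order became 24, 14, 26 and 9 of 73 higher genes, and 32, 27, 25 and 7 of 91 lower genes. Each deletion was thus the one farther from WT in part of the genes. Loci at least 2-fold from WT in opposite directions numbered 5; 3 of them were under 300 bp and the others were listed at 0 in htl1Δ or npl6Δ.

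Some genes lay at least 4-fold from WT on the same side in both deletions. Those given here were picked as the ones with the smallest ratio between htl1Δ and npl6Δ, so their closeness is no result. Both comparisons use the same WT library, which unlike both deletions had MET17 transcript. GSY1, a glycogen synthase, had 23.9 FPKM in htl1Δ, against 22.7 in npl6Δ, 103 in rsc1Δ, 33.1 in rsc2Δ, 54.1 in rtt102Δ and 142 in WT. The gene YOR338W had 141 FPKM in htl1Δ, against 125 in npl6Δ, 42.1 in rsc1Δ, 60.1 in rsc2Δ, 20.5 in rtt102Δ and 13.3 in WT. In both genes htl1Δ and npl6Δ were the libraries farthest from WT. ATG41, an autophagy gene, had 267 FPKM in htl1Δ, against 237 FPKM in npl6Δ and 51.2 FPKM in WT. AGA1, the anchor of a-agglutinin, had 25.7 FPKM in htl1Δ, against 30.1 FPKM in npl6Δ and 139 FPKM in WT.

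Chromosome XIV stood apart from the other chromosomes. Its 399 measured genes had a median log2 ratio of -0.21, with 76.2% below 0, and 19 were past the rule as lower, against 2 as higher. Against WT the median of chromosome XIV was -0.20 in htl1Δ and 0.02 in npl6Δ, and between 0.01 and 0.02 in the other deletions. In 4 successive stretches of about 100 genes along the chromosome the medians were -0.18, -0.24, -0.28 and -0.15. Chromosome III had a median of -0.11, with 0.03 in htl1Δ and 0.15 in npl6Δ against WT, and the other 14 chromosomes lay between -0.01 and 0.08. The cause of the shift was not tested. HHT2, HHF2, EGT2, DSE4, LEU4, LYS9, PCL1 and COX5A are on chromosome XIV. With each chromosome centred on its own median, EGT2 had a log2 ratio of -0.97, DSE4 -0.92, LEU4 -0.86, LYS9 -0.82 and COX5A -0.81, all under 2-fold, while HHT2, HHF2 and PCL1 stayed past the rule.

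**Figure D5:**
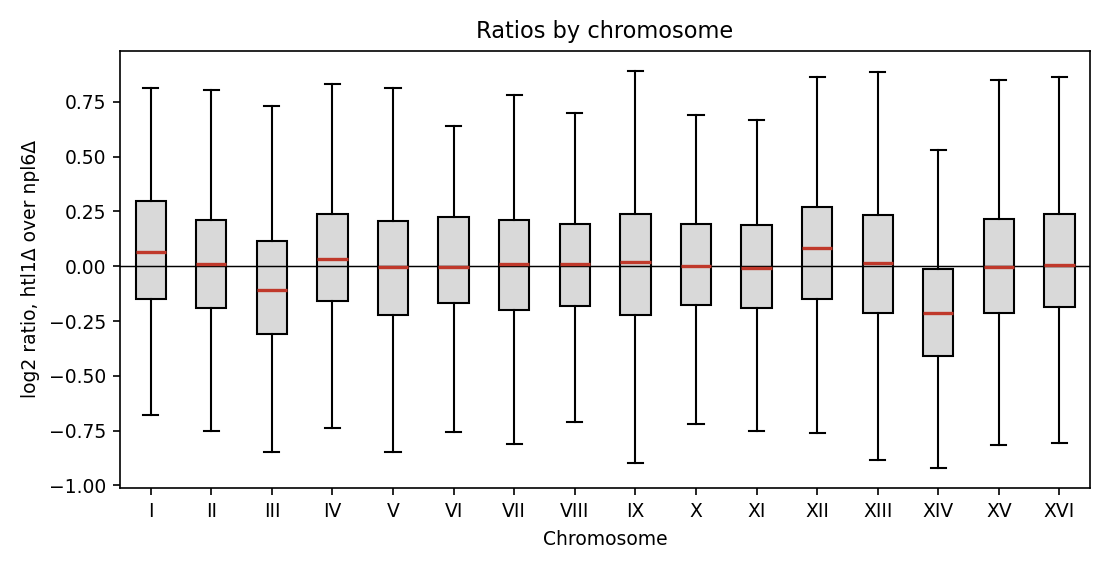
Log2 ratio of htl1Δ over npl6Δ by chromosome; boxes run from the lower to the upper quartile, red lines are medians and whiskers reach 1.5 times the box, with farther points left out. Chromosome XIV has the lowest median, -0.21, followed by chromosome III at -0.11.

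Motif shares in the promoters of genes past the rule, taken for loci of at least 300 bp outside the mating-type, pheromone, marker and deleted genes that RefSeq lists as protein-coding, were compared with all 6001 promoters as a description. CGCG was found in 14 of 54 promoters of the genes higher in htl1Δ (25.9%), in 20 of 66 of those lower (30.3%) and in 26.1% of all. AGGGG was found in 31.5% of those higher, 37.9% of those lower and 21.6% of all.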

How the data were processed

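RNA-seq of 10 yeast libraries was deposited as 9 tables, of which 6 were used. TopHat, Cufflinks and Cuffdiff and the build sacCer3 are named in the submitters' processing notes, per the labels. Tool versions and strand (not given in the sources used here) stay unknown. Deposited values are FPKM per gene, scaled by the authors between the 2 libraries of a table. Each table was divided by the median over genes of its WT value over that of the htl1Δ table (0.989 for npl6Δ). Ratios are log2((FPKM + 1)/(FPKM + 1)), which understates differences of low genes. Deposited q-values, with their p-values, come from Cuffdiff as the authors ran it on 1 library against another, and are cited only as theirs. Rows naming several genes (115 of 6931) were left out. Names came from RefSeq R64, which held 5859 of the identifiers, and start and end were identical for 5381. Depth was estimated from low values, of which 78.6% to 82.1% were whole to within 0.1. No interval was made from it.

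The members and lists were chosen with earlier results of these data known. Named genes were the deleted, mating-type and marker genes, the 15 highest and 15 lowest ratios of other loci of 300 bp or more, without pheromone genes and loci listed at 0 in either library, up to 4 members past 2-fold per list, genes opposite in direction from WT, and, of the genes at least 4-fold from WT on the same side in both, the 10 with the smallest ratio between htl1Δ and npl6Δ. HTA2, HSP104, KIN3, SWI5, CLB1, CSE4, CLN1, CLN2, POL1, CDC9, COX5B, PHO12 and PHO84 were named after their values were seen. Before use, the ratio and its rule were tested on simulated data with planted changes past the 2-fold limit. No change was planted near that limit or in genes near 5 FPKM, and short or overlapping loci were not treated apart. Python 3.11.15, pandas 2.3.3, NumPy 2.4.6 and matplotlib 3.10.9 were used.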

Additional observations from a re-analysis of the deposited data

How the results depend on the processing

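With a pseudocount of 10 FPKM the genes past the 2-fold rule fell to 62 higher and 69 lower in htl1Δ, against 116 and 118 with 1 FPKM. For loci of at least 300 bp, and with the mating-type, pheromone, marker and deleted genes left out, 73 were higher. Under the other settings run, both counts were within 1.5 times. These were a pseudocount of 0.1 FPKM, no filter or one of 20 FPKM, levels as deposited, median centring, rows of any status, rows naming several genes, locus length, and leaving out the marker genes. Centring by chromosome, leaving out chromosome XIV and joining both limits were chosen after seeing the data. Of 1198 recomputed ratios of the 98 named genes measured, 30 dropped under 2-fold, 21 of them with a pseudocount of 10 FPKM, and 0 changed sign. The 98 include TRP1, ADE2, CAN1, LYP1 and the genes picked for a small ratio between htl1Δ and npl6Δ. Those were under 2-fold from the start and could not drop. Of the list medians, 513 moved by less than 0.25 and 7 by more. No paired analysis was possible because each strain had 1 library. For the same reason no library could be left out, and neither chance, culture nor strain differences can be told from the deletions.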

Other observations

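Further gene lists had small ratios of htl1Δ over npl6Δ with most members on one side. Galactose genes had a ratio above 0 in 6 of 6 measured members, with a median log2 ratio of 0.42, although all were low: GAL1, the galactokinase, had 12.4 FPKM in htl1Δ and 8.75 FPKM in npl6Δ, and GAL4, the activator, 13.4 FPKM in htl1Δ and 8.42 FPKM in npl6Δ. With a filter of 20 FPKM GAL80 alone was left, at 0.03. Genes of the glyoxylate cycle and gluconeogenesis had a ratio above 0 in 8 of 9 cases, with a median of 0.42. Most of these were low too: with a filter of 20 FPKM 3 were left, with a median of 0.30. A pseudocount of 10 FPKM gave a median of 0.22 over the 9. MDH2, the cytosolic malate dehydrogenase, had 148 FPKM in htl1Δ and 97.0 FPKM in npl6Δ. Proteasome genes had a ratio below 0 in 25 of 33 cases, with a median of -0.11, and htl1Δ was the lowest of the 6 libraries in 22 of the 33, against 17.0% of all genes. Genes of glycogen and trehalose metabolism had a ratio below 0 in 14 of 18 cases, with a median of -0.19. No member of these lists passed the 2-fold rule. The lists were not matched for level, and the 1508 genes of highest mean level had a median of -0.07.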
